A study of Mus musculus with 4 samples.

Results

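Epha4, Pax3, Ihh, Shh and Lmbr1 are 5 mouse genes at the loci where CTCF boundaries of the limb are taught, and here they were mapped in heart muscle cells. Binding of CTCF was mapped by ChIP-seq, the sequencing of DNA recovered with an antibody to a chromatin protein. The material was left-ventricular cardiac myocytes of C57BL/6 mice, with 1 ChIP library for the control genotype and 1 labelled CTCF knockout, each from pooled cells (3 hearts). The 5 genes were chosen by name among 21883 protein-coding genes, and their regions were all lines of both deposited peak lists with the summit within 500 kb of the gene span. This gave 54 of the 20043 control regions and 42 of the 16128 regions in the library labelled knockout. The windows covered 4.76 Mb, with each overlap counted once, and formed 3 loci: Ihh, Epha4 with Pax3, and Shh with Lmbr1. With 1 library per genotype there was no replicate and no test between genotypes, and intervals cover counting error only. Age, sex and what drove the deletion were not given in the sources used here. Peak lists show neither expression nor whether the Ctcf gene was deleted, so the second library is called by its label, and the cell type was not checked against markers.

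CTCF is a zinc-finger protein that stops the extrusion of chromatin loops by cohesin, so that its sites often lie at the borders of topologically associating domains, within which enhancers and promoters meet. Epha4 encodes a receptor tyrosine kinase for ephrins, and Pax3 encodes a paired box transcription factor of muscle and neural crest precursors. Rearrangements that disrupt a border on either side of Epha4 are known to bring its limb enhancers into contact with Pax3 or other neighbours. Such rearrangements cause malformed digits. Ihh and Shh encode hedgehog ligands, of cartilage and of the early limb bud. The limb enhancer of Shh lies far from its target, in an intron of Lmbr1, a gene for a membrane protein. All 5 are best known from the embryo.

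A control region was counted as kept when a region of the other list overlapped it by at least 1 bp. Of the 54 control regions 39 were kept (72.2%, Wilson 95% interval 59.1 to 82.4), beside 69.0% of the whole control list. Of the 42 regions in the library labelled knockout 3 overlapped no control region (7.14%, interval 2.46 to 19.01), beside 14.2% of that whole list. Both intervals cover the whole-list values under these settings. This did not hold under every setting: among regions with a −log10 q from 5 up, 33 of 38 were kept (86.8%, interval 72.7 to 94.2), beside 71.6% of the whole list. When 50% of both regions had to overlap, 5 of 42 labelled-knockout regions had no control region (11.9%), and the interval lay below the 25.7% of that list. Within 250 kb it was 0 of 25 (interval 0 to 13.3%), beside 14.2%. These settings were picked out from several tried on the same regions. With fold enrichments from 5 up, lists of equal length or a window of 1 Mb, the intervals of both shares covered the whole-list values. With lists of equal length, for example, 82.5% were kept (interval 68.1 to 91.3), beside 78.5% of the whole list. The summits of the 39 shared regions lay 1 to 78 bp apart, with a median of 19 bp, and 28 of the 39 pairs were within 30 bp. Over all 13832 shared control regions the median was 26 bp. The lists record no read depth. The number of reads stacked at each summit, the pileup, was recovered from the deposited fold enrichment and p, and ran from 6 to 36 reads at the control regions and from 10 to 27 in the other list. Fold enrichments of both lists stand side by side below and no direction is read from them, since each is relative to its own library.

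The regions that were not kept were among the weaker control regions at all 3 loci. The 25 control regions with a fold enrichment above the list median of 6.98 were all kept (interval 86.7 to 100%), beside 90.5% of such regions in the whole list. Of the 29 regions at or below the median 14 were kept (48.3%, interval 31.4 to 65.6), beside 48.1% of the whole list. The 15 regions that were not kept had control fold enrichments between 3.49 and 6.06 and pileups between 6 and 15 reads. Kept regions reached down to 3.88, so weak regions were of both kinds. The cause of this was not tested.

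**Figure D1:**
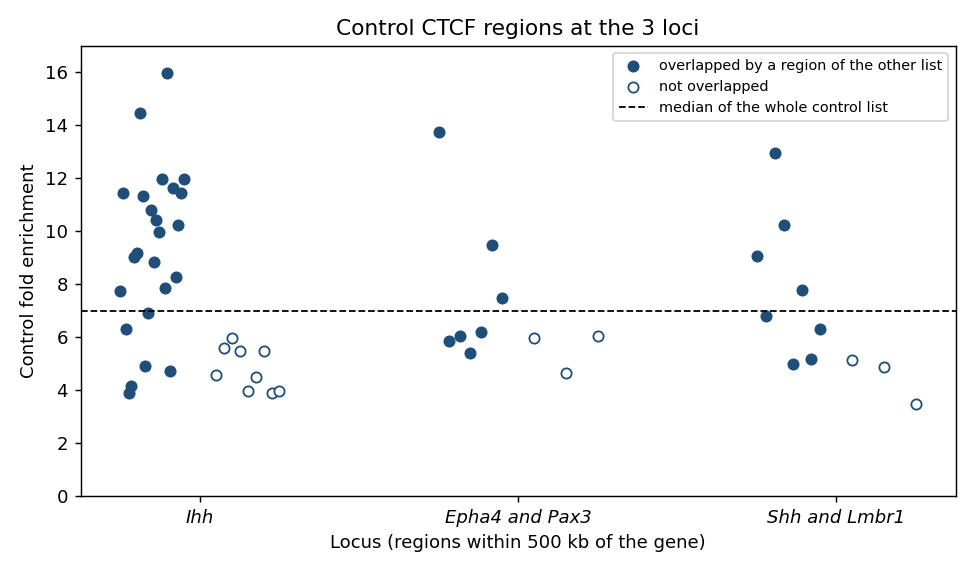
Control fold enrichment of each region (y axis) at the 3 loci (x axis); filled points were overlapped by a region of the library labelled knockout, open points were not, and the dashed line is the median of the whole control list. All open points lie at or below 6.06, under the line at 6.98, while filled points lie on both sides of it.

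The loci differed in how densely CTCF regions lay. Within 500 kb of Ihh there were 33 control regions, or 32.8 per Mb, more than around 93.2% of protein-coding genes. The windows of the other 4 genes held fewer regions per Mb than the median gene window. Shh had 7 control regions (6.93 per Mb), Pax3 had 7 (6.39 per Mb), Epha4 had 5 (4.36 per Mb) and Lmbr1 had 4 (3.48 per Mb). The median over all protein-coding genes was 12.6 per Mb, and 29.6%, 27.4%, 20.3% and 17.2% of genes lay below Shh, Pax3, Epha4 and Lmbr1. This median weighs each gene alike, and no mean per Mb of the whole genome was set beside it. In the library labelled knockout the counts were 26 for Ihh, 5 for Shh, 6 for Pax3, 3 for Epha4 and 4 for Lmbr1, beside a median of 9.85 per Mb. There, too, Ihh lay above the median of all genes and the other 4 below it. The Ihh window held 37 protein-coding genes, while the longer Epha4 and Pax3 locus held 8 and the Shh and Lmbr1 locus 11.

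**Figure D2:**
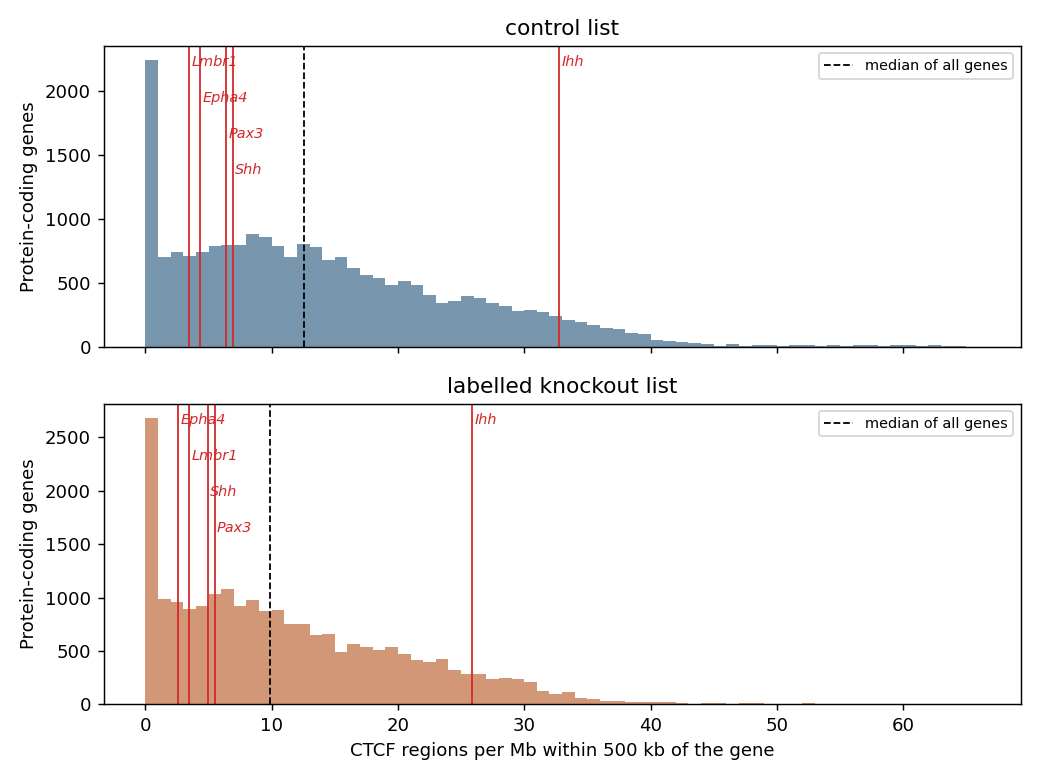
Number of protein-coding genes (y axis) by CTCF regions per Mb within 500 kb of the gene (x axis), in the control list (top) and the list labelled knockout (bottom); red lines mark the 5 genes and the dashed line the median of all genes. In both lists Ihh lies to the right of the median, at 32.8 and 25.8 per Mb, and the other 4 genes lie to its left.

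Promoter sequence could be set beside the regions for 3 of the 5 genes. The sequences below, from RefSeq on GRCm38.p6 (mm10), run from 250 bases before to 50 after a gene start, 5′ to 3′ on the minus strand for all except Retreg2, which is on the plus strand. Epha4 (chr1:77515039-77515338), Ihh (chr1:74951623-74951922) and Lmbr1 (chr5:29378341-29378640) are these 3 genes, and no region of either list overlapped their windows. In these 3, capitals mark the letters AGGGGGC, part of the CTCF consensus, which Lmbr1 lacked. Prkag3 (chr1:74748906-74749205) and Retreg2 (chr1:75142536-75142835), neighbours of Ihh, are shown because both libraries had a summit inside the window. In these 2, capitals mark the bases within the control region.
Epha4: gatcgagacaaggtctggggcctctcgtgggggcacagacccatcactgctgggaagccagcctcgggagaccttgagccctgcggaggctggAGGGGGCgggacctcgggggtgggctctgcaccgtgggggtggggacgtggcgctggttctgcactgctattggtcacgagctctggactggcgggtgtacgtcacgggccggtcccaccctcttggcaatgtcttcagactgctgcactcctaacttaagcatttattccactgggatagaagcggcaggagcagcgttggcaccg
Ihh: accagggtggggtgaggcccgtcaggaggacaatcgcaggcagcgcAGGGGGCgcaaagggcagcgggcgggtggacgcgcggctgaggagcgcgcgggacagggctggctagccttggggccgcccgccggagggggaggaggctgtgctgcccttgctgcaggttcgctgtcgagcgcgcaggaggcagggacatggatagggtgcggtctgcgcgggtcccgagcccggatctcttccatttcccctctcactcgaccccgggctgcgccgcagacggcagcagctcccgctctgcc
Lmbr1: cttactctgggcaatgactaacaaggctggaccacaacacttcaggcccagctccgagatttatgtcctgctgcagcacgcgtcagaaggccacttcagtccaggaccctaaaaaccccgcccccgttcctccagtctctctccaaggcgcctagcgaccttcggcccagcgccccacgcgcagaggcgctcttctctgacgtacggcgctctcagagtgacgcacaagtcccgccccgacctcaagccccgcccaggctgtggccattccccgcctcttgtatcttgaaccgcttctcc
Prkag3: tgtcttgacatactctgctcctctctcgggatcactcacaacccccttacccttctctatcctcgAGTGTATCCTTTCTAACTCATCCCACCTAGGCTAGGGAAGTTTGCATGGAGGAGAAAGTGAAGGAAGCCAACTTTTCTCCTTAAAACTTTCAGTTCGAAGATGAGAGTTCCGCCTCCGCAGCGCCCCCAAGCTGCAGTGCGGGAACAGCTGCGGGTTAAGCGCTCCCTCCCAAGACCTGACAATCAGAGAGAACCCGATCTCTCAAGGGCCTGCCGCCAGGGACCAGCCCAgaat
Retreg2: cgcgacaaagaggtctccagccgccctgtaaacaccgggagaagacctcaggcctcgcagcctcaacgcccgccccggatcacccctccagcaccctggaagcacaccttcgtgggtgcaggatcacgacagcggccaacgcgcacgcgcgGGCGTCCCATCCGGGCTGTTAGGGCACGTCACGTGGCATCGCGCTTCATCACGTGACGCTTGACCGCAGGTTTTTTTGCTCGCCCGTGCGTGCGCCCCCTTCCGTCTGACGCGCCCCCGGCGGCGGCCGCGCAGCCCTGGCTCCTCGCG

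The control region nearest to the Epha4 window lay 564 bases away, the one nearest to the Ihh window 1688 bases away and the one nearest to the Lmbr1 window 10831 bases away. Of the Prkag3 window 231 bases lay in a control region, and of the Retreg2 window 149. Among all 32851 promoter windows 3.81% held a control summit and 2.77% a summit of the library labelled knockout. The longer CTCF consensus was searched on both strands as CC, 3 free bases, AGG, 1 free base and GGC, or as CC, 3 free bases, AG, 1 free base and GGGC. These forms overlap each other, and both can contain AGGGGGC. One of them was present in 35.0% of windows with a control summit, in 42.0% of windows with a summit of the library labelled knockout and in 4.01% of windows with neither. None of the 5 printed windows held it. The 7 letters AGGGGGC, on either strand, were present in 31.8% of windows with a control summit, in 9.76% of windows with no summit in either list and in 10.6% of all windows. Epha4 and Ihh held them 1 time each in the printed direction, with no region over them, and Retreg2 held them on the opposite strand. A match is a description of the letters and not a binding site, and its absence says nothing of CTCF.

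At Epha4 (chromosome 1, 77367182 to 77515107, mm10) the CTCF regions lay at the end of the gene that holds its start site. The strongest, chr1:77516218-77516630, had its summit 1.32 kb beyond the gene, and its fold enrichment was 13.7 in the control and 12.2 in the other library. It ranked above 94.4% of control regions and above 91.9% of the regions labelled knockout. Its pileup was 28 reads in the control (Poisson 95% interval 18.6 to 40.5) and 24 reads in the other library (15.4 to 35.7). The summits were 7 bp apart. A further 2 control regions lay just inside the gene, 706 bp from the start site (chr1:77514340-77514475, fold enrichment 4.65) and at chr1:77513575-77513758 (5.98), each with a pileup of 11 reads. Neither was overlapped in the library labelled knockout. No other region was listed in the gene, which is 148 kb long, and the next region toward lower coordinates was 1441 kb away. This stretch was 1588 kb from summit to summit in the control and 1591 kb in the other list. Of 20021 control spacings 1.17% were as long or longer, and of 16106 spacings in the other list 1.61%. These shares, like those of spacings given below, count each spacing once. A long spacing covers more of the chromosome, so a gene is likelier to lie in one than its share says. A stretch without a region means that no line is listed there, not that CTCF was absent.

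Between Epha4 and Pax3, whose spans are 586 kb apart, a pair of regions was listed in both libraries and nothing else beyond the region at the end of Epha4. The first, chr1:77972359-77972632, was enriched 5.84-fold in the control and 7.56 in the library labelled knockout, with pileups of 11 and 13 reads. The second, chr1:77978763-77978971, had 6.04 and 8.10, with 13 and 14 reads. Both control values were below the list median, at 30.7% and 35.8% of the list, and both regions were kept. In the library labelled knockout they ranked above 54.1% and 60.8% of its own list. Their summits lay 457 and 464 kb from Epha4 and 129 and 122 kb from Pax3. Their summits differed by 19 and 12 bp between the libraries. No protein-coding gene lies in this interval. The whole Epha4 and Pax3 locus held 9 long noncoding RNA genes, whose positions were not examined. The stretch from the Epha4 end region to the pair measured 456 kb in both lists, beside a median spacing of 38.6 kb in the control list.

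Pax3 (chromosome 1, 78101267 to 78197136) had no CTCF region within its span or within 10 kb in either library. It lay in a stretch of 441 kb between the pair described above and a region at the shared end of Sgpp2 and Farsb, and 5.50% of control spacings and 7.52% of spacings in the other list were as long or longer. That region, chr1:78419625-78419868, was enriched 5.42-fold in the control and 10.3 in the library labelled knockout, with pileups of 13 reads (interval 6.92 to 22.2) and 18 reads (10.7 to 28.4). Sgpp2 encodes a sphingosine phosphate phosphatase and Farsb a subunit of phenylalanyl-tRNA synthetase. A second region within Farsb had 6.20 and 5.94. The 2 regions within Mogat1, which encodes an acyltransferase of lipid synthesis, had control fold enrichments of 9.47 and 7.48 and 6.48 each in the other list. All 4 were kept, and their order by fold enrichment was not the same in both lists. The last control region of the window, within Acsl3, an acyl-CoA synthetase gene, had 6.06 and was not kept. It lay 490 kb from Pax3, just inside the limit, and the first control region beyond the limit, at 528 kb, had 5.81 and was kept.

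**Figure D3:**
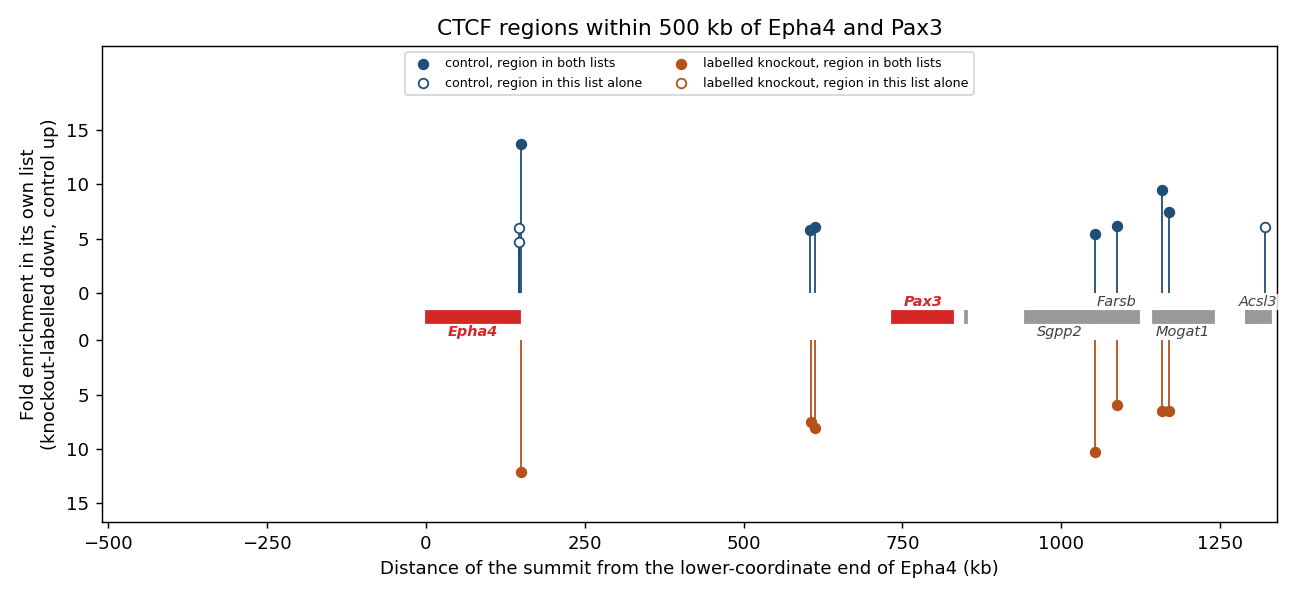
CTCF regions along the Epha4 and Pax3 locus: x axis, distance of the summit from the lower-coordinate end of Epha4 in kb; y axis, fold enrichment, control upward and the library labelled knockout downward; boxes are protein-coding genes and open circles are regions in 1 list alone. Regions stand at the right end of Epha4 (13.7 and 12.2), at the pair between the genes and to the right of Pax3, with empty stretches of 456 and 441 kb between them.

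Shh (chromosome 5, 28456840 to 28467101) held no region in its span and was flanked on both sides in both libraries. On the lower-coordinate side chr5:28451308-28451634, 5.41 kb from the gene, was enriched 10.2-fold in the control and 13.7 in the library labelled knockout, with pileups of 20 reads (interval 12.2 to 30.9) and 27 reads (17.8 to 39.3). On the other side chr5:28469893-28470028, 2.82 kb from the gene, was weaker, with 4.99 and 5.36 and pileups of 9 and 10 reads. The stronger flank was thus the one facing Rbm33, and the weaker one the one facing Lmbr1, in each list. Both were kept, and the weaker ranked above 15.2% of control regions.

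The strongest region of the Shh window lay 163 kb from Shh and 22.6 kb from Rbm33, an RNA-binding protein gene. It is chr5:28294098-28294318, enriched 12.9-fold in the control and 15.1-fold in the other list, with summits 5 bp apart. It ranked above 92.3% of control regions and above 97.3% of the regions labelled knockout. Farther out, 2 kept regions on either side of Insig1, a regulator of sterol synthesis, had 9.06 and 6.82 in the control and 9.70 and 6.24 in the other list. The 2 control regions of this window that were not kept had low fold enrichments, 5.15 (42.5 kb from En2, an engrailed homeobox gene) and 4.87 (within Rbm33). Their pileups were 15 and 9 reads, over recovered local backgrounds of 2.11 and 1.05. The pileup of the region near En2 thus equalled the control list median of 15 reads.

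From the weak region beside Shh to the first region in Lmbr1, 823 kb held no listed region in either library. As long or longer were 554 of the 20021 control spacings (2.77%) and 598 of the 16106 spacings in the other list (3.71%). The summits at its ends differed by 46 and 21 bp between the libraries. This stretch is not the whole interval between Shh and its limb enhancer in Lmbr1. The weak region beside Shh lies between Shh and Lmbr1. Whether the region in Lmbr1 also lies between Shh and the enhancer was not computed.

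Lmbr1 (chromosome 5, 29229802 to 29378421) held 1 region, in its body at chr5:29293280-29293491, which was listed in both libraries. Its fold enrichment was 7.79 in the control and 10.7 in the library labelled knockout, with pileups of 15 reads (interval 8.40 to 24.7) and 21 reads (13.0 to 32.1). The files used here give no exons or enhancer positions, so its place relative to the Shh enhancer was not computed. A second region, chr5:29389471-29389765, lay 11.1 kb beyond the end that holds the gene start, with 5.18 and 10.2 and pileups of 11 and 20 reads. A region 11.8 kb from Ube3c, a ubiquitin ligase gene, had 6.33 and 6.41 and was kept. The weakest control region at the 5 genes, within Ube3c (3.49, pileup 6), was not kept. The 1 region in this window found in the library labelled knockout alone lay 38.4 kb from Dnajb6, a chaperone gene, with a fold enrichment of 5.85. The windows of Shh and Lmbr1 overlapped by 237 kb, and no region fell there.

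**Figure D4:**
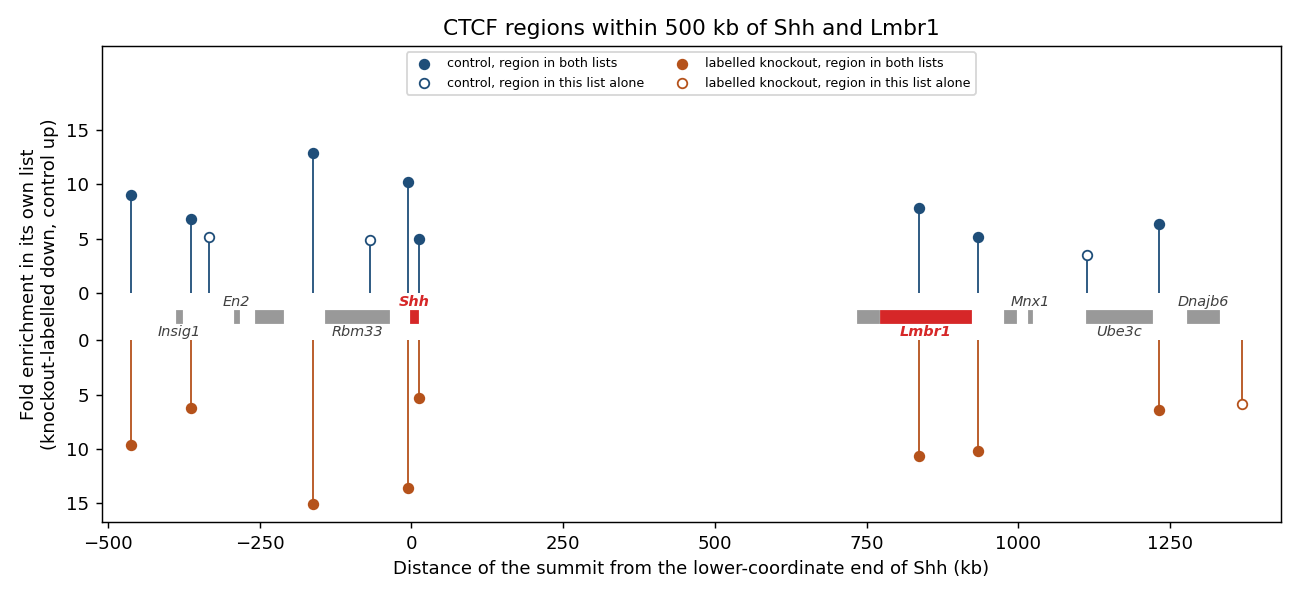
CTCF regions along the Shh and Lmbr1 locus, drawn as distance of the summit from the lower-coordinate end of Shh in kb (x axis) against fold enrichment (y axis), control upward and the library labelled knockout downward; boxes are protein-coding genes and open circles are regions in 1 list alone. The empty stretch of 823 kb from Shh to the region in Lmbr1 is seen in both lists.

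Ihh (chromosome 1, 74945315 to 74951672) held 2 control regions in its span. The stronger, chr1:74948916-74949099, was enriched 8.83-fold in the control and 6.21 in the library labelled knockout, with pileups of 17 reads (interval 9.90 to 27.2) and 15 reads (8.40 to 24.7). The weaker, chr1:74949785-74949935, had 5.98 with 11 reads in the control and no overlapping region in the other list. The nearest regions outside the gene were within Cfap65, a cilia and flagella protein gene, 18.4 kb below Ihh (10.8 in both lists), and 13.0 kb above it, near Nhej1 (10.4 and 7.80). Both flanking regions were shared, and 24 of its 33 control regions were kept.

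The strongest regions of the Ihh window lay away from Ihh. They were within Ptprn, a receptor-type phosphatase gene of secretory granules (chr1:75251605-75251885; 15.97 in the control and 8.15 in the other list), and 4.10 kb from Wnt10a, a Wnt ligand gene (chr1:74808171-74808426; 14.5 and 11.3). The next were within Nhej1, a DNA end-joining gene (11.98 and 6.20), 2.72 kb from Gmppa (11.96 and 10.3) and 0.408 kb from Dnpep (11.7 and 11.5). The Ptprn region had a pileup of 36 reads (interval 25.2 to 49.8) in the control and 20 reads (12.2 to 30.9) in the other library. Depth is unknown for both, so these reads were not compared. All 5 were kept. Around the Wnt ligand genes Wnt6 and Wnt10a, regions were close together. The 3 in Wnt6 had control fold enrichments of 6.33, 3.88 and 4.15 and were all kept, with 9.26, 5.94 and 5.05 in the other list.

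Of the 48 promoter windows at the Ihh locus, those of Prkag3, Retreg2, Cyp27a1 and Tuba4a held a control summit, beside 3.81% of all windows. Only Prkag3 and Retreg2 also held a summit of the library labelled knockout, beside 2.77%. A shared region at the start of Ttll4 (7.73 and 8.64) had its control summit 70 bp from the start site, just outside the promoter window. The region in the Prkag3 window had 11.5 in the control and 9.12 in the other list, and that in the Retreg2 window had 7.85 and 6.34. Prkag3 encodes a muscle subunit of AMP-activated protein kinase, and Retreg2 a reticulophagy regulator. Control regions at the starts of Cyp27a1, a sterol hydroxylase gene (4.58), and Tuba4a, a tubulin gene (4.49), were not kept. Des and Speg, which encode desmin and a kinase of striated muscle, lie inside the window and are the genes of heart muscle there. Between them chr1:75371491-75371717, 3.01 kb from Des, had 8.28 and 7.56, and 2 regions within Speg had 10.2 and 11.5 in the control and 6.48 and 9.32 in the other list. All 3 were kept. Obsl1, a further muscle gene, lies beyond the 500 kb limit, and 2 of its 3 control regions within 10 kb were kept.

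Not kept in the Ihh window were 9 control regions, with fold enrichments up to 5.98 and pileups of 7 to 11 reads. Besides those at Ihh, Cyp27a1 and Tuba4a named above, they lay beside Cfap65 (5.59), within Nhej1 (5.48 and 3.99), within Tuba4a at a second position (5.48), within Ptprn (3.88) and 12.5 kb from Resp18 (3.99). Regions in the library labelled knockout without a control region were 2, at 1.54 kb from Dnajb2 (6.48, pileup 11) and 17.3 kb from Des (7.35, pileup 16). The last region inside the limit, near Gmppa at 494 kb, was kept, as was the next outside, at 509 kb with a control fold enrichment of 3.42.

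**Figure D5:**
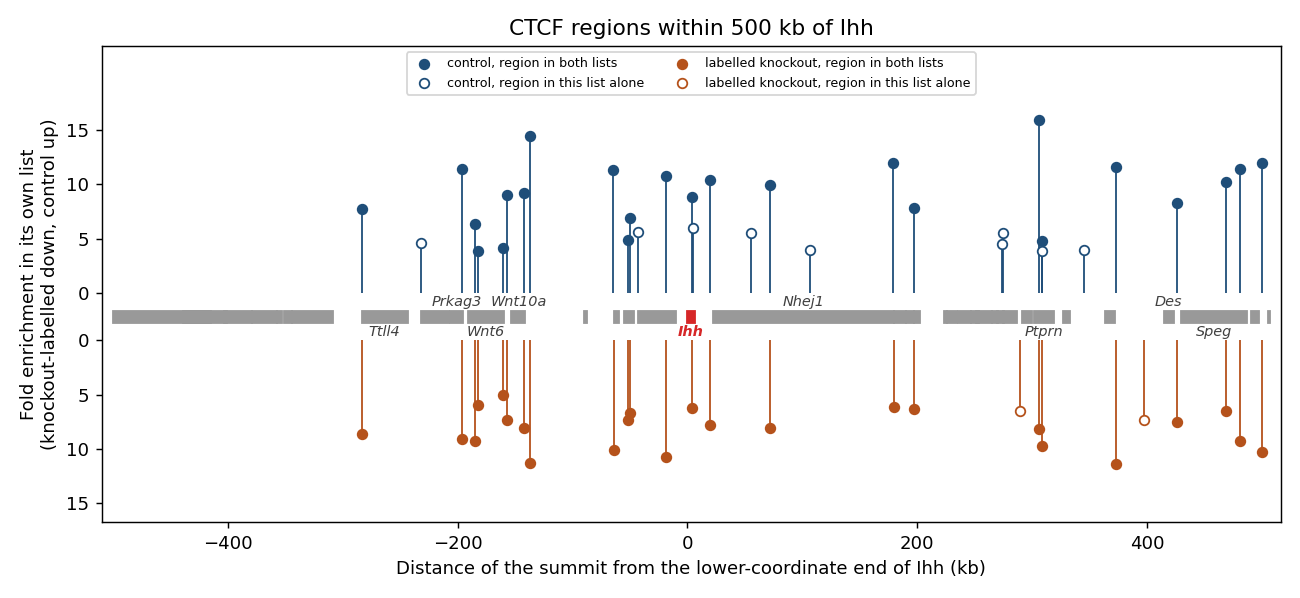
CTCF regions along the Ihh locus: x axis, distance of the summit from the lower-coordinate end of Ihh in kb; y axis, fold enrichment, control upward and the library labelled knockout downward; boxes are protein-coding genes and open circles are regions in 1 list alone. Of the 33 control regions 9 are open, all at 5.98 or below, and of the 26 regions below the axis 2 are open.

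Other genes of these pathways were examined for regions within 10 kb. A control region lay within 10 kb of 50.1% of all protein-coding genes, and 68.3% of control regions within 10 kb of any such gene were kept. Of 16 further hedgehog pathway genes 10 had a control region, and 19 of their 26 control regions were kept (73.1%, interval 53.9 to 86.3). The strongest were near Gas1, a hedgehog co-receptor gene (14.5 in the control and 13.0 in the other list), and Gli1, a transcription factor of the pathway (13.97 and 8.78). The only control region near Gli2 (5.48) was not kept, and none was listed near Ptch1, Gli3, Hhip, Disp1, Cdon or Kif7 in the control.

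Of 21 other genes of ephrins and their receptors 16 had a control region, and 27 of 36 regions were kept (75.0%, interval 58.9 to 86.2). Ephb2, a receptor gene, had 6 regions, all kept, with control fold enrichments from 5.84 to 11.7. The strongest of the list lay near Efna2, a ligand gene (15.5 and 6.99), and the only control region near Ephb4, another receptor gene, was not kept (8.67). Of 8 other paired box genes 2 had a control region, Pax2 (5.98, kept) and Pax5 (8.47, kept, and 9.47, not kept). Like Pax3, the other 6 had no control region within 10 kb. Of 12 limb regulators 4 had a control region and 6 of 8 regions were kept. The strongest of the 8, near Hand2, a limb and heart transcription factor gene (10.97), was not kept. Those kept included 2 near Fgf8, a growth factor gene of the limb ridge (8.76 and 5.98 in the control, 13.5 and 7.35 in the other list), and 1 near Alx4, a homeobox gene (9.47 and 4.36). The kept shares of these lists had intervals that covered 68.3%.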

How the data were processed

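The 2 CTCF ChIP libraries were used, and the 2 input samples were not analysed here. MACS2, SAMtools 0.1.19 and Bowtie2 2.2.6 are named with mm10, per the submitters' processing notes, while the MACS2 version and thresholds were not given in the sources used here. The deposited region names carry 1 genotype per list, and each list was treated as called on its own library. The deposited lists give a fold enrichment, a −log10 p, a −log10 q and a score by the authors. The fold enrichment was read as the pileup plus 1 over the local background plus 1. It is therefore lower than the plain ratio of pileup to background. The deposited score equals 10 times the −log10 q without its decimals. All lines were used.

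Gene spans came from a RefSeq table of GRCm38.p6. The members and gene lists were chosen with earlier results of these data known. Regions were named by rule: the 5 strongest control regions of each window, those in, within 10 kb of or flanking a member, control regions above the list median that were not kept (none existed) and labelled-knockout regions without a control region. Weaker not kept regions and those at Wnt6, promoters and muscle genes were named after their values were seen. Whole pileups were solved from the fold enrichment and Poisson p, and gave back each listed −log10 p within 0.001 for 100% of regions; depth itself is unknown. The recovery step was run on simulated pileups, and the overlap step on copies of control regions shifted by known distances. Such copies are unlike separate libraries, so this says nothing of how well the deposited lists overlap. Intervals are Wilson for shares and exact Poisson for pileups, both at 95%. Software was scipy 1.17.1, pandas 2.3.3 and numpy 2.4.6 under Python 3.11.15, with matplotlib 3.10.9 for figures.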

Additional observations from a re-analysis of the deposited data

How the results depend on the processing

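No paired analysis was possible because only 1 library stood for a genotype. The letters AGGGGGC were added after the data were examined; the other settings were planned. The kept share at the 5 genes, 72.2%, was 86.8% (interval 72.7 to 94.2) for regions with −log10 q from 5 up, 82.9% for fold enrichments from 5 up and 82.5% for lists of equal length, beside 71.6%, 71.3% and 78.5% of the whole list. The first of these intervals lies above the whole-list value. It stayed within its interval when 50% of both regions had to overlap, when summits had to lie within 100 bp and with both other windows. The share of labelled-knockout regions without a control region, 7.14%, was 19.05% with the fold limit and 21.4% with equal lengths, beside 16.8% and 21.0% of the whole list, and 0% (0 of 25) with a window of 250 kb. Control and labelled-knockout regions numbered 34 and 25 within 250 kb and 96 and 74 within 1 Mb, by construction, against 54 and 42. The summit distance stayed within 1.5 times its value. Of 150 values for single genes 120 stayed within the interval or 1.5 times and 30 moved. With 4 to 33 control regions per gene, intervals on the shares were wide, and single regions with pileups of 6 to 36 reads have no replicate.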
